A study of Mus musculus with 12 samples.

Results

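Interferon-stimulated genes, the genes that cells transcribe when an interferon binds its receptor, were followed across the cells of the neonatal mouse liver. A list of 43 such genes was matched by symbol to the 32285 genes counted, and all 43 were found. The list holds the ISG15 system, the IFIT and OAS families, nucleic acid sensors, transcription factors, interferon-gamma-inducible GTPases, restriction factors, the PARP group and 7 other interferon-induced genes. The rule for membership uses gene names alone, and the list was drawn up with earlier results of these data known.

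The livers came from 12 C57BL6/J pups, 6 with phlebotomy-induced anemia (PIA) and 6 controls, and every cell suspension was sequenced by 10x single-cell RNA-seq of the 3′ ends of transcripts. In the anemia group, 20 µL of blood per g of body weight was drawn from the facial vein every 2 days from postnatal day 2 to day 10. Control pups were pricked with a needle each day without losing blood, and littermates were assigned at random to either group. All livers were collected on postnatal day 11 and carry the same batch label. No gene was altered in either group, the litter of each pup is not given in the labels, and the dissociated cells were spun at low speed before they were loaded.

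Type I interferons (interferon alpha and beta) act through the receptor IFNAR, the kinases JAK1 and TYK2 and a complex that holds STAT2 and IRF9 and binds the interferon-stimulated response element (ISRE) in the promoters of its targets. Interferon gamma, made mainly by NK cells and T cells, acts through another receptor, JAK1 and JAK2 on genes with a gamma-activated site (GAS), and it is the stronger inducer of the immunity-related GTPases and guanylate-binding proteins. The products bind viral RNA (IFIT proteins), make a second messenger that starts RNA decay (OAS proteins), bind foreign nucleic acids (RIG-I, encoded by Ddx58, and MDA5, encoded by Ifih1), tag proteins (ISG15) or block entry and release of viruses (IFITM3 and BST2). The neonatal liver is still a site of blood formation, so that erythroid, myeloid and lymphoid cells lie beside hepatocytes and sinusoidal endothelium.

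The promoters were searched for the core letters of the element that type I interferon uses. In windows of 300 bases (250 before to 50 after the transcription start) from RefSeq on GRCm38.p6, 34 of the 43 members had a sequence, and 18 of these (52.9%) held at least 1 ISRE core, compared with 3.99% of the 27025 genes with such windows. The core searched was GAAANNGAAA or, on the other strand, TTTCNNTTTC, with overlapping matches allowed. It was found in 5 of 6 GTPases, 3 of 4 IFIT genes, 4 of 6 restriction factors, 2 of 4 OAS genes and 2 of 3 sensors with a window, and in 0 of 5 of the other interferon-induced genes. The GAS core TTCNNNGAA, read on both strands, was found in 8 of the 34 members (23.5%) and in 9.55% of all genes. A match of letters is a description and no proof of a bound site. Usp18, Oas2, Dhx58, Zbp1, Ifi204, Parp9, Parp14, Rtp4 and Ifi27l2a had no window. The 170 bases before the start are printed 5′ to 3′ on the gene's strand for 6 of the 18 members with a core, picked to show Isg15, Rsad2 and genes of the IFIT and GTPase roles, with ISRE cores in capitals. Irf7 and Irf9 had windows that held no core.
Isg15, chr4:156200819-156200988, minus strand, 3 overlapping cores, the closest 66 bases before the start: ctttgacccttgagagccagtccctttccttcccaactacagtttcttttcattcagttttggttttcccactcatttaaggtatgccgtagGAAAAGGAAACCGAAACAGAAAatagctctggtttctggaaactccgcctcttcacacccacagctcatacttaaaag
Ifit1, chr19:34640719-34640888, plus strand, 2 cores, the closest 85 bases before the start: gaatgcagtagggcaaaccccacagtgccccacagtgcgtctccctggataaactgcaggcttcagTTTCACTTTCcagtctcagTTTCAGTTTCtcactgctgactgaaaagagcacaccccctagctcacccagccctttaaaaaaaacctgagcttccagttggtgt
Ifit3, chr19:34583359-34583528, plus strand, 2 cores, the closest 122 bases before the start: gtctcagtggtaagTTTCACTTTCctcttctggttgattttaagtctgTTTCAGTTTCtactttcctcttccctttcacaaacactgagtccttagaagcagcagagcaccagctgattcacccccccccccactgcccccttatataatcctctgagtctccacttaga
Igtp, chr11:58199386-58199555, plus strand, 1 core 34 bases before the start: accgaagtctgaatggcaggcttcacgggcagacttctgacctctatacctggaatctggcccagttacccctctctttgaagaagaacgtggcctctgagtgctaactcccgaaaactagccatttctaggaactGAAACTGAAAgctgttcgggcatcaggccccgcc
Gbp2, chr3:142620493-142620662, plus strand, 1 core 59 bases before the start: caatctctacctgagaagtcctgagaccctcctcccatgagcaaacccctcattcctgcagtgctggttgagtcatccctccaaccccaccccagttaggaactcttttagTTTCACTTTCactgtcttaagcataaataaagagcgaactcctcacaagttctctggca
Rsad2, chr12:26456453-26456622, minus strand, 1 core 120 bases before the start: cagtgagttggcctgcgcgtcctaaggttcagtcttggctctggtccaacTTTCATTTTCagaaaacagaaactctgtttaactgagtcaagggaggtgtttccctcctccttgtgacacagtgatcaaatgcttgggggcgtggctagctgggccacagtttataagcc
Of these 6, Isg15, Ifit1 and Ifit3 carried 2 or more cores and Igtp, Gbp2 and Rsad2 carried 1 each. Among members that are not printed, the GTPase genes Irgm1 and Gbp3 and the IFIT gene Ifit3b carried 2, Gbp7 carried 1, and no core was found in the window of Ifit2. Igtp also held a GAS core elsewhere in its window.

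Of 207537 barcodes, 206146 passed the filters on UMIs (unique molecular identifiers, each standing for 1 captured transcript) and mitochondrial share, with 14184 to 21186 cells and 45751640 to 74344118 UMIs per mouse. Clusters were named from marker genes, and 12 classes of cells are described, each called "-like" because the names were rebuilt here. Levels are given in CPM, UMI counts summed per mouse and class and scaled to a common total over the genes tested, after trimmed-mean (TMM) scaling, and since 1 UMI is counted per transcript end they can be compared between genes. A gene was called when edgeR's quasi-likelihood test gave a Benjamini-Hochberg adjusted p under 0.05 over all genes tested in that class. The mice are separate animals, so the p-values measure the spread between these mice.

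Anemia 2 and anemia 3 stood apart before any comparison. Monocyte-like cells numbered 5103 and 2450 in these mice and 297 to 568 in the other 10, and neutrophil-like cells numbered 2085 and 1717 compared with 527 to 1161. Endothelial-like cells numbered 1112 and 1336 in anemia 2 and anemia 3, respectively, and 2088 to 3222 elsewhere. The summed level of 13 neutrophil markers in neutrophil-like cells was 79907 CPM in anemia 2, 166094 CPM in anemia 3, and 192285 to 228831 CPM in the controls. The clusters that made up a class shifted as well. Cluster 16, led by Ly6i, Saa3 and Clec4e, held 55.3% of the monocyte-like cells of anemia 2, 38.5% of those of anemia 3, 16.1% to 33.3% in the other anemic livers and 4.24% to 13.4% in the controls. Cluster 7, led by Csta3, Asprv1 and Slc7a11, was the largest neutrophil-like cluster in every mouse, with 90.6% of these cells in anemia 2, 55.4% to 65.3% in the other anemic livers and 48.8% to 52.8% in the controls. Clusters were formed without the 43 members. Results are therefore given with and without anemia 2, and also without control 2, which had the highest members among the controls. The labels do not give the sex of the pups, and Y-linked transcripts marked 2 of 6 controls, control 2 among them, and 4 of 6 anemic pups, without anemia 2, as male. With their level as a covariate edgeR called 2 members in B-like cells, 14 in hepatocyte-like cells and 0 in each of the other 10 classes. The fits without this covariate called 2.03% of all genes in B-like and 56.1% in hepatocyte-like cells. The counts with the covariate are therefore not read as a result about the members.

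In control livers the members were spread over several compartments. Endothelial-like cells had the highest mean level of 15 members and macrophage-like cells of 14, whereas B-like, NK-like and hepatocyte-like cells led for 0 members. The sensor Ifih1 reached 232 ± 117 CPM (SD, n = 6 mice, as for all levels given with ±) in endothelial-like cells compared with 91.3 ± 18.8 CPM in macrophage-like cells, the next class, and the ranges of the 6 control mice did not overlap. Parp14, a mono-ADP-ribosyltransferase, was also led by endothelial-like cells at 268 ± 72.1 CPM. Macrophage-like cells led for Irf7, the transcription factor that amplifies interferon alpha transcription, at 369.9 ± 136 CPM, for Ifit3 at 116 ± 45.3 CPM, and for Lgals3bp, a secreted galectin-binding protein, at 354 ± 85.3 CPM. In most members the leading classes ran into each other: the control ranges of the highest and the next class overlapped for 30 of the 43.

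Other members were highest outside these classes at baseline. Bst2, which encodes tetherin and is a known surface marker of mouse plasmacytoid dendritic cells, was at 1620.0 ± 182 CPM in plasmacytoid dendritic-like cells and at 465 ± 99.0 CPM in the next class, macrophage-like cells, without overlap. Stat2 was also highest in plasmacytoid dendritic-like cells (148 ± 30.4 CPM), and there again the range did not meet that of the next class. Ifitm3 (1766 ± 317 CPM) and Samhd1, a dNTPase that limits reverse transcription (689 ± 128 CPM), were highest in monocyte-like cells. Ifi209, a DNA-binding PYHIN protein, was highest in pre-B-like cells at 199.9 ± 16.1 CPM and next in B-like cells at 98.7 ± 17.4 CPM. The GTPases Ifi47 and Igtp were highest in T-like cells, at 145 ± 30.8 and 58.2 ± 15.0 CPM, and Ifi47 in NK-like cells followed at 136 ± 18.3 CPM, a difference within the spread of the mice. Epsti1 was close to level between conventional dendritic-like cells (645 ± 126 CPM) and NK-like cells (593 ± 42.3 CPM).

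Isg15 and Rsad2 departed from the rest of the list, since erythroid-like cells had their highest baseline mean. Isg15, the ubiquitin-like modifier, was at 439.8 ± 272 CPM in erythroid-like cells, 259 ± 140.0 CPM in endothelial-like cells and 10.6 ± 3.72 CPM in pre-B-like cells, the lowest class. Rsad2, which encodes the antiviral radical SAM enzyme viperin, was at 468 ± 235 CPM in erythroid-like cells and 124 ± 42.2 CPM in macrophage-like cells. Both genes were present in each of the 9 erythroid clusters, with pooled levels of 439 to 1425 CPM for Isg15 and 252 to 689 CPM for Rsad2 over all mice.

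**Figure D1:**
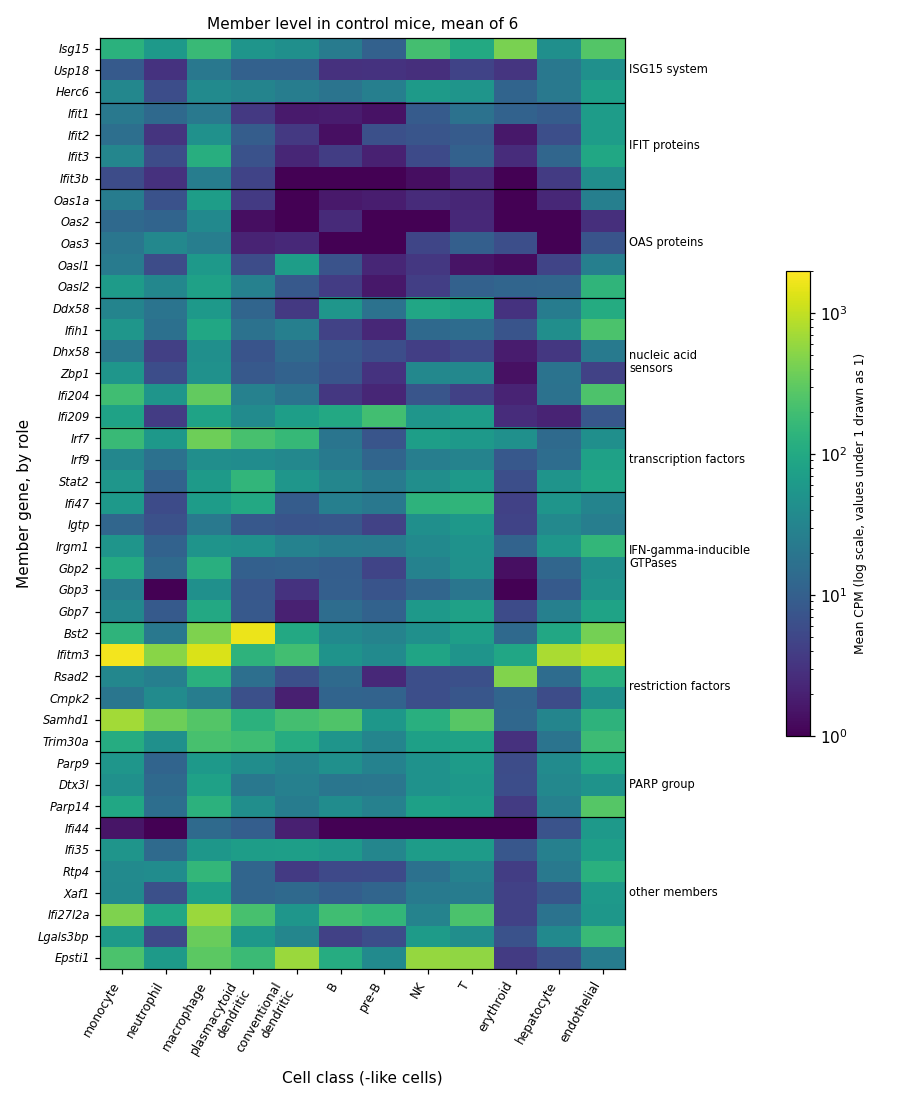
Mean level of each member (CPM, colour on a log scale, values under 1 drawn as 1) over the 6 control mice, with members in rows grouped by role and the 12 cell classes in columns. Endothelial-like and macrophage-like columns lead for 15 and 14 members, while Isg15 and Rsad2 are highest in erythroid-like cells and Bst2 in plasmacytoid dendritic-like cells.

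In anemic liver the members leaned upward in most classes, but few differed beyond the spread between mice. edgeR's test called 2 of 38 tested members in B-like cells, both higher (2.03% of all genes tested were called there, 0.864% as higher), and 12 of 41 in hepatocyte-like cells, 6 higher and 6 lower (56.1% of all genes, 28.3% higher and 27.8% lower). It called 0 members in monocyte-like (0.319% of all genes), neutrophil-like (0.422%), macrophage-like (2.43%), plasmacytoid dendritic-like (1.07%), conventional dendritic-like (0.362%), erythroid-like (0.582%), T-like (0.255%), NK-like (0.118%), endothelial-like (15.9%) and pre-B-like cells (1.29%). DESeq2 called 1 member each in plasmacytoid dendritic-like (Isg15, with 1.4% of all genes called), conventional dendritic-like (Ifitm3, 1.15%) and erythroid-like cells (Isg15, 1.66%). It called 2 in endothelial-like cells (Zbp1 and Ifitm3), where it called 19.8% of all genes. The hepatocyte-like share of members called lay below the share of all genes, and the B-like share lay above it.

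The median log2 fold change of the tested members (anemia over control) was 1.36 in neutrophil-like cells, 0.63 in monocyte-like, 0.61 in conventional dendritic-like, 0.55 in B-like and 0.53 in endothelial-like cells, and lowest in macrophage-like cells at 0.10. Over all genes tested the median lay between -0.03 and 0.03 in each class. Without anemia 2 the medians fell to 0.46 in neutrophil-like and 0.18 in monocyte-like cells, and they turned negative in macrophage-like (-0.05), T-like (-0.02) and hepatocyte-like cells (-0.31). Without control 2 they rose instead, to 1.79 in neutrophil-like and 0.74 in endothelial-like cells. With both mice left out the medians were 0.79, 0.44, 0.36 and 0.45 in neutrophil-like, monocyte-like, B-like and endothelial-like cells. They were 0.10 in T-like and -0.01 in hepatocyte-like cells. Leaving out anemia 2 lowered the median, and leaving out control 2 raised it, in 12 of 12 classes. Both mice were picked because their members were high, so these directions follow from the choice and are no further result. Globin transcripts also moved with the groups: their median share of UMIs was higher in anemia in each of the 11 classes other than erythroid-like cells, at 0.148% to 1.39% in the controls and 0.439% to 4.91% in the anemic livers.

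**Figure D2:**
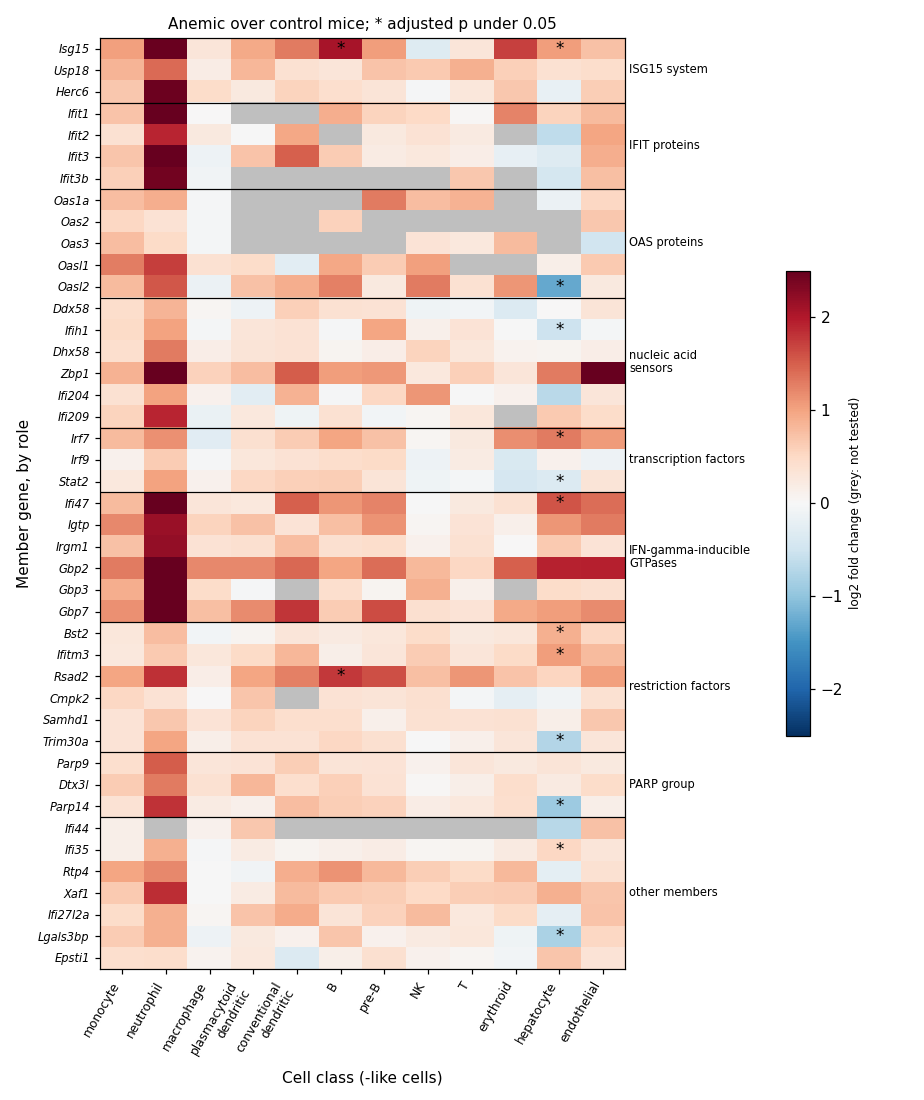
Log2 fold change (anemia over control) of each member (rows, by role) in the 12 cell classes (columns), from edgeR. Colours saturate at 2.5 in either direction, grey marks members below the count filter, and stars mark adjusted p under 0.05; the neutrophil-like column is positive for 42 of 42 tested members yet holds no star, and 12 of the 14 stars lie in hepatocyte-like cells.

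Members varied between mice more than other genes did. The biological coefficient of variation, which edgeR estimates from the replicates of both groups after counting noise, had a median over members of 0.70 in neutrophil-like cells compared with 0.22 over all genes, 0.43 compared with 0.20 in monocyte-like cells, and 0.25 compared with 0.13 in plasmacytoid dendritic-like cells. When each member's log2 (CPM + 5) in a mouse was set against the mean of the controls, anemia 2 had the highest median deviation over the members in 12 of 12 classes (0.57 to 2.77). Control 2 was among the 3 highest mice in 11 of 12 classes (0.27 to 0.89) and anemia 3 in 10 (0.09 to 1.08), anemia 5 was in 3, and no other mouse was among them in any class. In neutrophil-like cells anemia 2 held the highest value of 42 of 42 tested members, and in macrophage-like cells of 20 of 43. Of the controls, control 2 held the highest value of 40 members in neutrophil-like cells and of 41 in both macrophage-like and endothelial-like cells.

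**Figure D3:**
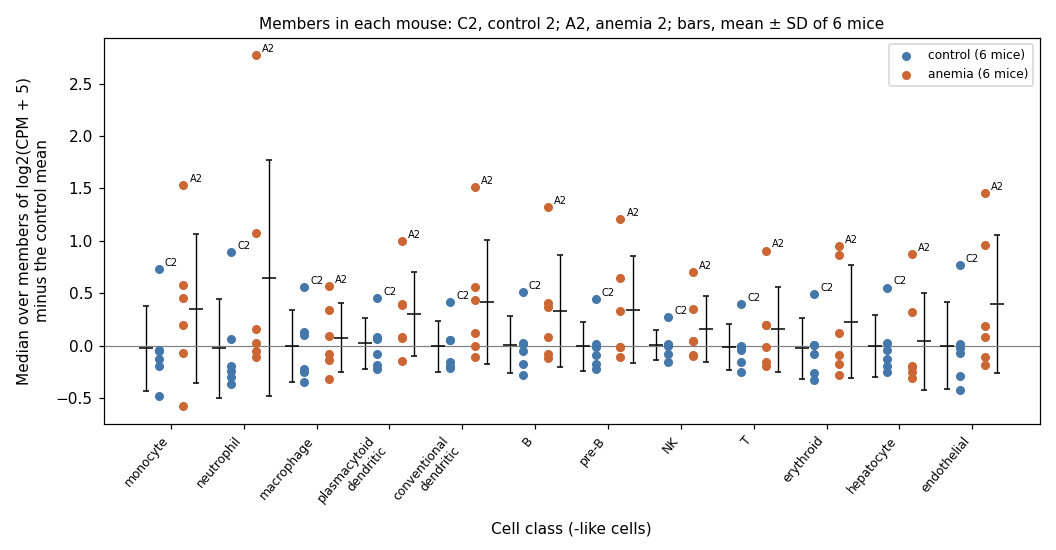
Median over the tested members of each mouse's log2 (CPM + 5) minus the mean of the 6 controls (vertical axis), by cell class, with 1 point per mouse, controls in blue, anemic mice in orange, and bars for the mean ± SD of each group. Anemia 2 is the highest point in each of the 12 classes, and control 2 and anemia 3 follow it in most.

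Levels were also summed by role in each mouse, with no test between roles. The GTPases, which include the members most responsive to interferon gamma, were highest in anemia 2. Their summed level in neutrophil-like cells was 2346 CPM in anemia 2, 203 CPM in anemia 3 and 17.5 to 109 CPM in the controls, so that anemia 2 was at 50.3 times the control mean. In monocyte-like cells the sum was 2248 CPM in anemia 2 and 194 to 566 CPM in the controls. In macrophage-like cells it was 1996 CPM compared with 296 to 707 CPM. Endothelial-like cells gave 2440.0 CPM and 270.5 to 693 CPM. In each of these 4 classes anemia 2 lay well above all controls. The IFIT genes were high in anemia 2 too, with a summed level in neutrophil-like cells of 602 CPM, compared with 129 CPM in anemia 3 and 8.74 to 72.7 CPM in the controls.

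Control 2 was the highest control for both roles in neutrophil-like, monocyte-like, B-like and endothelial-like cells. In endothelial-like cells the summed level of the IFIT genes was 867 CPM in control 2 and 86.7 to 216 CPM in the other 5 controls, while the anemic livers lay between 191 and 996 CPM. The GTPase sum in the same cells was 693 CPM in control 2, compared with 270.5 to 359 CPM in the other controls. A control liver with no blood loss therefore lay within the range of the anemic livers for the IFIT genes and above 4 of the 6.

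**Figure D4:**
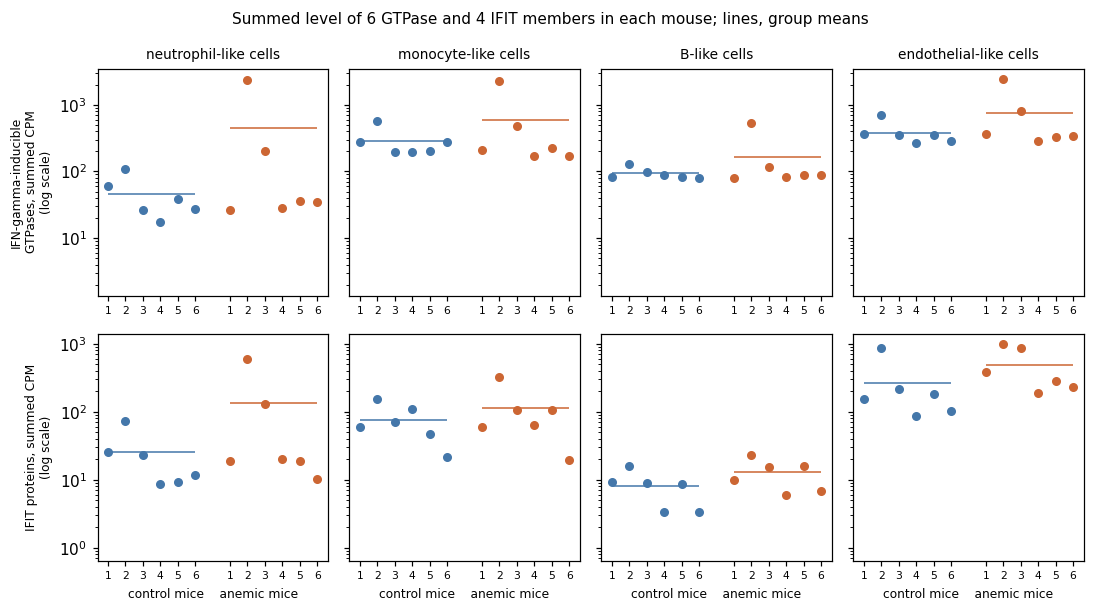
Summed level (CPM, log axis) of the 6 GTPase members (top) and the 4 IFIT members (bottom) in each mouse, for neutrophil-like, monocyte-like, B-like and endothelial-like cells, with lines at the group means. Anemia 2 is the highest mouse for the GTPases in all 4 classes, and control 2 is the highest control for both roles.

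Neutrophil-like cells had the highest median log2 fold change of the 12 classes, both with all mice (1.36) and without anemia 2 (0.46, 39 of 41 members positive). No fit left out anemia 2 and anemia 3 together, so their joint part in it was not tested. Of 42 tested members, 26 had an unadjusted p under 0.05, all higher in anemia (15% of all genes had such a p, in either direction), and 0 had an adjusted p under 0.05. The guanylate-binding protein Gbp2 was at 1.46 to 32.6 CPM in the controls (median 10.2) and at 4.10 to 1269 CPM in the anemic livers (median 9.94). Anemia 2 held the top value, anemia 3 was at 106 CPM, and the other 4 anemic mice were at 4.10 to 10.1 CPM, inside the control range. The log2 fold change was 4.10 (SE 1.31, adjusted p = 0.177), and 1.22 without anemia 2 (adjusted p = 0.556).

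Isg15 in neutrophil-like cells was at 13.8 to 147 CPM in the controls (median 49.1). In the anemic livers it was at 1464 CPM in anemia 2, 245 CPM in anemia 3 and 49.7 to 60.7 CPM in the other 4, which overlapped the controls. The log2 fold change was 2.46 (SE 0.88, adjusted p = 0.210), or 0.73 without anemia 2 (adjusted p = 0.631). Ifit1 reached 327 CPM in anemia 2 and 74.5 CPM in anemia 3, with the controls at 3.42 to 35.1 CPM. Zbp1, a sensor of left-handed nucleic acids that can start necroptosis, followed the same order: 187 CPM in anemia 2, 48.7 CPM in anemia 3 and 0.856 to 19.7 CPM in the controls. Ddx58, which encodes the RNA sensor RIG-I, depended less on 1 mouse, with a log2 fold change of 0.85 (SE 0.26, adjusted p = 0.159) and 0.66 without anemia 2 (adjusted p = 0.209).

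The same order was seen in the share of cells. After each cell was thinned to 500 UMIs, 58.7% of the 2085 neutrophil-like cells of anemia 2 held a UMI of a GTPase member (exact 95% binomial interval 56.5% to 60.8%, counting error only), compared with 8.10% in anemia 3, 0.751% to 1.83% in the other anemic mice and 1.35% to 5.18% in the controls. In erythroid-like cells of anemia 2, where GTPase transcripts were lowest, the share at the same depth was 3.32% (2.499% to 4.32%). Unthinned, the shares in anemia 2 were 80.0% of neutrophil-like cells, at a median of 1237 UMIs, and 9.34% of erythroid-like cells, at a median of 1368 UMIs. The GTPase signal of anemia 2 was thus present in most neutrophil-like cells of that mouse and was not carried by a few. It was also seen in 51.6% of its hepatocyte-like cells and 54.6% of its monocyte-like cells.

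Monocyte-like and macrophage-like cells gave smaller differences. In monocyte-like cells 43 of 43 members had a positive log2 fold change and 3 had an unadjusted p under 0.05 (12.2% of all genes). Isg15 was at 81.7 to 245 CPM in the controls, 847 CPM in anemia 2, 255 CPM in anemia 3 and 67.5 to 159 CPM in the other anemic livers, with a log2 fold change of 1.03 (SE 0.51, adjusted p = 0.435). Within cluster 17 alone, the cluster that held most monocyte-like cells of the controls, 0 members were called. The fit of all monocyte-like cells called 0.319% of all genes, so a count of 0 there is not read as a result about the members. Macrophage-like cells came from other clusters in anemia 2 and anemia 3: cluster 8 held 0.267% and 5.80% of them in these mice, 31.8% to 36.7% in the other anemic livers and 38.7% to 49.8% in the controls, while cluster 11 held 49.5% and 49.4% in these mice and 14.7% to 20.3% in the controls. In macrophage-like cells 28 of 43 members were positive and 2, Gbp2 and Gbp7, had an unadjusted p under 0.05 (20.7% of all genes).

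Macrophage-like Irf7 was at 229 to 579.8 CPM in the controls and 167 to 492 CPM in the anemic livers, with a log2 fold change of -0.28 (SE 0.27, adjusted p = 0.572). The groups overlapped almost completely. Gbp2 in the same cells was at 85.0 to 227 CPM in the controls, 993 CPM in anemia 2 and 95.7 to 195 CPM in the other anemic livers, with a log2 fold change of 1.20 (SE 0.54, adjusted p = 0.221).

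Both dendritic classes leaned upward as well. In plasmacytoid dendritic-like cells, which are known for making interferon alpha, 33 of 38 members were positive and 9 had an unadjusted p under 0.05, all higher (12.5% of all genes). Usp18, the protease that removes ISG15 from proteins and dampens IFNAR signalling, was the only member in these cells whose groups did not overlap (1.12% of all genes): the controls lay at 6.15 to 14.5 CPM (median 10.5) and the anemic livers at 15.2 to 29.4 CPM (median 17.04). Its log2 fold change was 0.82 (SE 0.25, adjusted p = 0.130). Isg15 was at 41.2 to 72.8 CPM in the controls and 51.5 to 175 CPM in the anemic livers, with some overlap, and its log2 fold change was 0.95 (SE 0.25, adjusted p = 0.0747). Erythroid transcripts were higher as well, with 8 markers summing to 399 to 10310.0 CPM in the controls and 4152 to 26622 CPM in the anemic livers (6 of 8 genes higher, 0 at 0). In this sum and those that follow, the 8 markers include the globin genes Hba-a1 and Hbb-bs. Cells were next left out if they held an erythroid UMI, here and below a UMI of an erythroid marker other than the globins. Cells with globin UMIs alone were kept. Without the cells that held an erythroid UMI, Isg15 gave 0.80 (adjusted p = 0.156) and Rsad2 0.93 (adjusted p = 0.254), where with all cells Rsad2 gave 0.98 (adjusted p = 0.100). Bst2, the lineage marker, gave 0.06 (SE 0.10, adjusted p = 0.874). Leaving out 1 mouse changed the count of 0: edgeR called Stat2, Rsad2 and Ifi27l2a without control 2, Isg15 and Rsad2 without anemia 4, Isg15 without anemia 1 and Ifi27l2a without anemia 6. The fit of all mice called 1.07% of all genes in these cells, and the share in these smaller fits is not given here.

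In conventional dendritic-like cells 17 of 35 members had an unadjusted p under 0.05, 16 of them higher (11.5% of all genes). Isg15 was at 15.3 to 73.6 CPM in the controls and 36.3 to 289 CPM in the anemic livers, with a log2 fold change of 1.30 (SE 0.40, adjusted p = 0.159), and 4 of the 6 anemic mice lay above all controls. Rsad2 was low, at 2.04 to 11.5 CPM compared with 5.00 to 30.7 CPM, and 5 anemic mice lay above all controls (log2 fold change 1.25, adjusted p = 0.159). The 8 erythroid markers summed to 1199.9 to 8536 CPM in these cells of the controls and 4532 to 20219.7 CPM in those of the anemic livers (7 of 8 genes higher, 0 at 0). Without the cells that held an erythroid UMI the log2 fold changes were 0.99 for Isg15 (adjusted p = 0.367) and 1.12 for Rsad2 (adjusted p = 0.314), and 2 anemic mice lay above all controls for each gene. Epsti1 was at 479.7 to 819.7 CPM in the controls and 406 to 647 CPM in the anemic livers (log2 fold change -0.35, adjusted p = 0.287). The count of 0 called members became 2 (Ifitm3 and Rsad2) without anemia 4 and 1 (Ifitm3) without anemia 6. The fit of all mice called 0.362% of all genes in these cells, and the share in the smaller fits is not given here.

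Whether the response differed between myeloid classes was tested by taking, in each mouse, the difference of log2 levels between a class and macrophage-like cells (limma, Benjamini-Hochberg over all genes). The anemia effect was larger than in macrophage-like cells for Isg15 (difference 0.93, SE 0.22, adjusted p = 0.0484) and Xaf1, a pro-apoptotic interferon-induced gene (difference 0.82, SE 0.15, adjusted p = 0.0146) in conventional dendritic-like cells, 2 of 35 members compared with 1.17% of all genes. It was larger for Irf7 in plasmacytoid dendritic-like cells (difference 0.70, SE 0.14, adjusted p = 0.0490), 1 of 38 members compared with 0.233%. For the monocyte-like and neutrophil-like differences limma called 0 of 43 (0.496% of all genes) and 0 of 42 members (0.185%), with 11 and 13 members at an unadjusted p under 0.05, all larger (14% and 14.2% of all genes). With 1 mouse left out at a time Xaf1 was called each time, whereas Isg15 was lost without control 1, 2, 3 or 6 or anemia 1, 2, 3, 5 or 6, and 5 members were called without anemia 4. The Irf7 call was lost (0 members) without any 1 of the controls or anemia 2, 5 or 6, and Irf7 was called in neutrophil-like cells without anemia 2. Shares of all genes called in these smaller fits are not given here, so their counts are not read as a result about the members. The Irf7 difference joins a log2 fold change of 0.41 in plasmacytoid dendritic-like cells to one of -0.28 in macrophage-like cells, neither of which was called. The cluster make-up of the macrophage-like cells of anemia 2 and anemia 3 enters these differences, and its part in them was not tested.

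In endothelial-like cells 40 of 43 members were positive and no member was called. An unadjusted p under 0.05 was found for 10 members, all higher, a smaller share than the 31.8% of all genes (in either direction). Ifitm3, which blocks the fusion of viruses with endosomes, was at 711 to 1460.3 CPM in the controls (median 889) and 1065 to 3218 CPM in the anemic livers (median 1322), with a log2 fold change of 0.79 (SE 0.28, adjusted p = 0.0683). Ifit1 was at 240.1 CPM in control 2 and 16.3 to 54.9 CPM in the other controls, whereas the anemic livers lay at 48.8 to 254 CPM. Its log2 fold change was 0.78 (SE 0.64, adjusted p = 0.423). Without control 2, 11 members were called in these cells, where that fit called 12.5% of all genes, and all 11 were higher (Isg15, Usp18, Ifit1, Ifit2, Ifit3, Ifit3b, Ddx58, Stat2, Ifitm3, Rsad2 and Ifi44), and without anemia 4 only Ifitm3 was called (14.4% of all genes).

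With both number 2 mice left out, 5 of 43 members were called in endothelial-like cells, a share near the 10.7% of all genes called in that fit: Ifit1 (log2 fold change 1.68, adjusted p = 0.0420), Rsad2 (1.35, adjusted p = 0.0247), Ifit2 (1.28, adjusted p = 0.0228), Ddx58 (0.37, adjusted p = 0.0484) and Stat2 (0.28, adjusted p = 0.0349). These mice were chosen for leaving out after their values were seen. Ifit3 and Ifit3b are near-identical neighbours whose reads can be split between them, so their separate values are uncertain. Leaving out cluster 68, a small set of endothelial-like cells led by Cxcl9, Ubd and Fabp4, did not change the count of 0. Erythroid markers summed to 1078 to 4488 CPM in endothelial-like cells of the controls and 5916 to 13436 CPM in those of the anemic livers, with 8 of 8 marker genes higher and 0 at 0, and edgeR again called 0 members once cells with an erythroid UMI were left out.

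Hepatocyte-like cells held most of the called members, in a class where 56.1% of all genes were called. The class was made up of different shares of its clusters in the groups: cluster 15, led by Fabp1, Uox and Ttc36, held 10.8% to 20.4% of the cells in the controls and 21.8% to 43.95% in the anemic livers, and cluster 24, led by Apob, Cps1 and Dpyd, held 22.8% to 31.1% and 8.58% to 15.5%. The part of these shares in the members' values was not tested. Ifitm3 was at 611 to 918 CPM in the controls (median 766) and 929 to 2898 CPM in the anemic livers (median 1264), and all 6 anemic mice lay above all controls. Its log2 fold change was 1.05 (SE 0.23, adjusted p = 8.83e-04), and it was still called without anemia 2 (0.76, adjusted p = 8.29e-04). Bst2 was at 67.1 to 118 CPM in the controls and 105 to 358 CPM in the anemic livers, 5 of which were above all controls (log2 fold change 0.88, SE 0.24, adjusted p = 0.00520, and 0.56, adjusted p = 0.00724, without anemia 2). Ifitm3 rose and Parp14 fell with no overlap between groups, 2 of 41 members compared with 31.8% of all genes.

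The other 4 higher members in hepatocyte-like cells rested on anemia 2. Ifi47, an immunity-related GTPase, was at 736 CPM in anemia 2, 34.9 to 67.6 CPM in the other anemic livers and 36.4 to 80.9 CPM in the controls. Its log2 fold change was 1.57 (SE 0.64, adjusted p = 0.0458) and turned to -0.10 without that mouse (adjusted p = 0.658). Isg15 was at 29.5 to 71.4 CPM in the controls, 277 CPM in anemia 2 and 41.7 to 81.3 CPM in the others, and its log2 fold change went from 1.04 (adjusted p = 0.0274) to 0.40 (adjusted p = 0.0939). Irf7 went from 1.31 (adjusted p = 0.0452) to 0.35 (adjusted p = 0.258), and Ifi35 from 0.52 (adjusted p = 0.0461) to 0.29 (adjusted p = 0.126). These calls were also lost without control 1, 4 or 6, at adjusted p = 0.0548 to 0.0622 for Isg15, 0.0616 to 0.0938 for Irf7, 0.0718 to 0.0801 for Ifi47 and 0.0571 to 0.11 for Ifi35. Irf7 and Ifi47 lost theirs without control 3 (adjusted p = 0.0675 and 0.0667) or control 5 (0.0666 and 0.0829) as well. Irf7 was also lost without anemia 3 (adjusted p = 0.067), and Ifi35 without control 2 (0.0597), anemia 3 (0.0973) or anemia 5 (0.0599).

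The 6 members that fell in hepatocyte-like cells were still called without anemia 2. Parp14 was at 22.1 to 43.3 CPM in the controls and 11.7 to 21.0 CPM in the anemic livers, all 6 of which lay below all controls (log2 fold change -0.92, SE 0.19, adjusted p = 4.47e-04). Lgals3bp was at 30.3 to 41.5 CPM in the controls and 17.9 to 34.3 CPM in the anemic livers, 5 of them below all controls (log2 fold change -0.79, SE 0.15, adjusted p = 2.27e-04). Of these 6, the fall was greatest for Oasl2, at -1.28 (adjusted p = 0.00365), and smallest for Stat2, at -0.34 (adjusted p = 0.00537). Trim30a and Ifih1 gave -0.73 (adjusted p = 0.00555) and -0.52 (adjusted p = 0.0122).

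Markers of other cells moved with these hepatocyte-like values. The summed level of 7 endothelial markers in hepatocyte-like cells went from 555 ± 106 to 169 ± 75.4 CPM, that of 7 stellate markers from 631 ± 109 to 124 ± 74.8 CPM, and that of 9 macrophage markers from 273 ± 53.7 to 189 ± 88.8 CPM. The 8 erythroid markers went from 2700.1 ± 1845 to 11748 ± 4259.7 CPM, and 0 genes of these 4 lists were at 0. Parp14 and Ifih1 had their highest baseline in endothelial-like cells, and Lgals3bp in macrophage-like cells. The part of these cells in the lower members was not tested. Without called doublets, Parp14 (-0.92 to -0.33, adjusted p = 0.37), Trim30a (to -0.39, adjusted p = 0.311) and Ifih1 (to 0.03, adjusted p = 0.913) were no longer called. With TMM factors 56.1% of all genes were called in hepatocyte-like cells. Without these factors the median of all genes in these cells moved to -0.42, and the split became 1 member higher and 9 lower. Shares of all genes called higher and lower without these factors are not given here, so the split is not read as a result about the members. Read against that shift of all genes, the median member, at -0.24, still lay above the median of all genes.

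In B-like cells Isg15 and Rsad2 were higher in every anemic liver than in every control (2 of 38 members without overlap, compared with 1.84% of all genes). Isg15 was at 8.27 to 51.0 CPM in the controls (median 19.8) and 55.6 to 191 CPM in the anemic livers (median 77.1), with a log2 fold change of 2.06 (SE 0.34, adjusted p = 0.00320). Rsad2 was at 2.68 to 29.6 CPM in the controls and 38.0 to 64.0 CPM in the anemic livers, with a log2 fold change of 1.77 (SE 0.32, adjusted p = 0.00611). Neither depended on anemia 2, without which the values were 2.01 (adjusted p = 0.00280) and 1.80 (adjusted p = 0.00501). These were the 2 members with their highest baseline in erythroid-like cells.

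Erythroid transcripts in B-like cells moved the same way. The B-like class includes cluster 51, with 206 cells from the controls and 484 from the anemic livers. Its second-best class was erythroid and Alas2 was among its leading genes. The part of this cluster in the Isg15 and Rsad2 values was not tested on its own. The 8 erythroid markers summed to 1954 to 24505 CPM in B-like cells of the controls and 20334 to 53828 CPM in those of the anemic livers, 8 of 8 genes were higher and 0 were at 0. Globin transcripts made up 0.210% to 2.61% of their UMIs in the controls and 2.18% to 5.75% in the anemic livers. Hba-a1 and Hbb-bs count in both the marker sum and the globin share, so these are not separate measures. The test was repeated on the B-like cells with no UMI of an erythroid marker other than the globins, 88.5% to 98.7% of them per mouse. Globin UMIs did not exclude a cell. In those cells Isg15 was at 12.2 ± 5.40 CPM in the controls and 21.5 ± 17.5 CPM in the anemic livers (log2 fold change 0.79, adjusted p = 0.287). Rsad2 was at 2.65 ± 1.66 and 5.32 ± 4.06 CPM (log2 fold change 0.96, adjusted p = 0.324). Neither was called in those cells, and neither was called when doublets were left out (log2 fold changes 0.81, adjusted p = 0.316, and 0.79, adjusted p = 0.357). Isg20 and Ube2l6, other interferon-induced genes abundant in the erythroid clusters (412 to 852 and 280 to 672 CPM), behaved alike in B-like cells: log2 fold changes of 1.52 (adjusted p = 0.00186) and 1.42 (adjusted p = 0.00422) went to 0.46 (adjusted p = 0.455) and 0.21 (adjusted p = 0.747) without the cells that held erythroid UMIs.

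**Figure D5:**
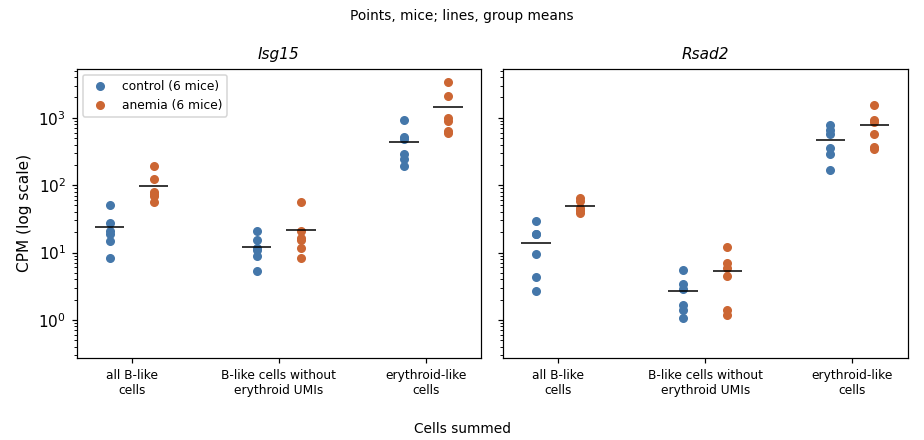
Isg15 and Rsad2 (CPM, log axis) in all B-like cells, in B-like cells without UMIs of erythroid markers other than the globins and in erythroid-like cells, with 1 point per mouse (6 per group) and lines at the group means. In all B-like cells the anemic livers lie above the controls for both genes, without the cells that held such UMIs the groups overlap, and the levels in erythroid-like cells are the highest.

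Of the 14 other B-like members with an unadjusted p under 0.05 (16 in all, 15.9% of all genes), all were higher in anemia and 0 were called. Erythroid-like cells themselves gave 2 members with an unadjusted p under 0.05, both higher (11.5% of all genes). Isg15 there was at 191 to 928 CPM in the controls (median 385) and 587 to 3427 CPM in the anemic livers (median 949), where anemia 3 was highest and anemia 2 was at 2097 CPM. 3 of the 6 anemic livers lay above all controls, and the log2 fold change was 1.71 (SE 0.46, adjusted p = 0.116). Cluster 5, where pooled Isg15 was at 498 CPM, held 35.9% to 50.3% of erythroid-like cells in the controls, 5.58% in anemia 2, 13.2% in anemia 3 and 18.7% to 36.3% in the other anemic livers. Cluster 3, with pooled Isg15 at 1153 CPM, held 15.0% to 26.2% in the controls, 39.2% in anemia 2 and 38.4% in anemia 3, and the part of these shares in the Isg15 values was not tested. Rsad2 was at 165 to 779.6 CPM compared with 347 to 1555 CPM (log2 fold change 0.71, SE 0.39, adjusted p = 0.499). Without TMM factors the median of all genes in erythroid-like cells moved to -0.33 and 1 member, Isg15, was called.

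Pre-B-like, T-like and NK-like cells had 0 called members. In pre-B-like cells 38 of 39 members were positive, with a median log2 fold change of 0.43 (0.20 without anemia 2). Unadjusted p-values under 0.05 were found for 10 of 39, 4 of 40 and 6 of 40 members of the 3 classes, all higher (14.1%, 7.99% and 11.7% of all genes). Isg15 in NK-like cells was the only negative value of this gene in the 12 classes: it was at 163 to 258 CPM in the controls and 83.5 to 246 CPM in the anemic livers, with overlapping groups (log2 fold change -0.32, SE 0.21, adjusted p = 0.574). In pre-B-like cells it was at 6.47 to 16.8 CPM compared with 8.22 to 62.8 CPM (log2 fold change 1.04, SE 0.40, adjusted p = 0.239). Of the 32 members tested in all 12 classes, 12 had a positive log2 fold change in each, compared with 1.66% of the 7173 genes tested in all classes: Usp18, Dhx58, Zbp1, Igtp, Irgm1, Gbp2, Gbp7, Ifitm3, Rsad2, Samhd1, Parp9 and Dtx3l. The classes come from the same mice, and without anemia 2 the count was 2 of 28 members (1.2% of all genes).

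The genes upstream of the members were read from fixed lists of 6 receptor subunits, 10 signalling genes, 9 upstream sensors and 69 other interferon-induced genes. In endothelial-like cells 1 of 5 tested receptors and 3 of 10 signalling genes were called, all higher, in a class where 15.9% of all genes were called. Socs3, a feedback inhibitor of JAK kinases, was at 60.1 to 105 CPM in the controls and 159 to 278 CPM in the anemic livers (log2 fold change 1.51, SE 0.16, adjusted p = 8.14e-05). The kinase gene Jak2, which also serves the erythropoietin receptor, was at 141 to 169 CPM compared with 245 to 379 CPM (log2 fold change 0.93, SE 0.11, adjusted p = 1.25e-04). The receptor subunit Ifnar2 changed less, by 0.34 (adjusted p = 0.0355).

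Among the other interferon-induced genes 9 of 69 were called in endothelial-like cells, all higher, compared with 15.9% of all genes. Cxcl9, a chemokine induced by interferon gamma, was at 37.9 to 89.2 CPM in the controls and 49.4 to 1443 CPM in the anemic livers, with anemia 3 at 544 CPM (log2 fold change 2.74, SE 0.83, adjusted p = 0.0383), and without anemia 2 it was 1.48 (adjusted p = 0.120). Cluster 68, which Cxcl9 leads, made up 7.91% of the endothelial-like cells of anemia 2, 4.34% of those of anemia 3 and 0.497% to 1.26% in the other mice. In hepatocyte-like cells 12 of 60 tested genes of this list were higher and 12 lower (28.3% and 27.8% of all genes), and 4 of 10 signalling genes were lower, among them Jak1 (-0.83, adjusted p = 5.02e-05) and Irf1 (-1.02, adjusted p = 1.75e-04). Only Jak2 of 10 signalling genes was called in B-like cells (0.44, adjusted p = 0.00265). Isg20 was the only called gene among the other interferon-induced genes in macrophage-like and in plasmacytoid dendritic-like cells. In macrophage-like cells its log2 fold change of 1.20 (adjusted p = 0.00950) went to 0.17 (adjusted p = 0.714) without cells that held erythroid UMIs, whereas in plasmacytoid dendritic-like cells 1.39 (adjusted p = 0.0279) went to 1.29 (adjusted p = 0.0724), with 5 of 6 anemic mice above all controls. Of the upstream sensors, 0 were called in 11 classes, and in hepatocyte-like cells Ticam1, an adaptor of Toll-like receptors, was higher (0.65, adjusted p = 0.0380) while the nucleic acid receptors Cgas (-1.41, adjusted p = 0.00728) and Tlr3 (-0.60, adjusted p = 0.0481) were lower, 3 of 7 tested.

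The interferons themselves were scarce except for Ifng. NK-like cells held 117 to 177 CPM of Ifng in the controls and 96.4 to 560.0 CPM in the anemic livers, with anemia 2 highest at 560.0 CPM (log2 fold change 0.41, SE 0.35, adjusted p = 0.676). T-like cells held 94.3 to 139 CPM and 44.3 to 211 CPM (log2 fold change -0.16, adjusted p = 0.917). The mouse with the highest GTPase members thus also had the highest Ifng in NK-like cells, which is 1 mouse and was not tested. Control 2 was the highest control for the GTPases in neutrophil-like, monocyte-like, B-like and endothelial-like cells. Its Ifng was at 165 CPM in NK-like cells, inside the control range. In T-like cells anemia 2 was the highest anemic liver at 211 CPM and control 2 the lowest control at 94.3 CPM.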

How the data were processed

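Single-cell suspensions of 12 livers were counted by the authors with Cell Ranger (7.0.0 in the file headers, mm10 per the labels), and the deposited matrices hold raw UMI counts per gene and barcode. Whether intronic reads were counted is not given in the sources used here. Barcodes below 500 or above 50000 UMIs, or above 50% mitochondrial UMIs, were dropped. Libraries shared 51 to 121 barcodes per pair. Clusters (2000 variable genes without the members, 20 components, 20 neighbours, Leiden resolution 2, igraph 0.11.9, 83 clusters) were named from fixed markers. Doublets were scored (11.3% to 16.9% of cells per mouse) and kept, and leaving them out was an alternative. Counts were summed per mouse and class, genes averaging 5 or more UMIs over the mice entered edgeR 4.0.16 (TMM, quasi-likelihood, Benjamini-Hochberg), and class differences with limma 3.58.1 (prior count 2). The self-test recovered 80% of 100 genes changed 2-fold in B-like cells, 45% in neutrophil-like cells and, for the difference between neutrophil-like and macrophage-like cells, 26.1% of 92. These genes were drawn at random from all genes tested. Members varied more: their median coefficient of variation was 0.35 compared with 0.12 over all genes in B-like cells, and 0.70 compared with 0.22 in neutrophil-like cells. Recovery of members alone was not tested. Members and lists were chosen with earlier results of these data known. Genes named are those called, those without overlap, and the leading members of each role. Same-numbered mice do not share an origin in the labels.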

Additional observations from a re-analysis of the deposited data

Results flagged for a closer look

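Single mice stood apart from the other 5 of their group by Dixon's ratio in 11 of 52 groups examined. Chance would flag about 1 in 20 groups if they were independent. They were not, since the same mice were measured in each class and gene, and all 11 flags fell on control 2 or anemia 2. For the median log2 deviation of the members from the control mean, control 2 stood apart in monocyte-like (0.73), neutrophil-like (0.89), pre-B-like (0.44), hepatocyte-like (0.55) and endothelial-like cells (0.77). Anemia 2 stood apart in B-like (1.32) and T-like cells (0.91). In hepatocyte-like cells anemia 2 also stood apart for Isg15 (277 CPM), Irf7 (141 CPM), Ifi47 (736 CPM) and Lgals3bp (34.3 CPM). The response differed from that of macrophage-like cells, by the test of the difference, for Irf7 in plasmacytoid dendritic-like cells (0.70) and for Isg15 (0.93) and Xaf1 (0.82) in conventional dendritic-like cells.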

How the results depend on the processing

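With the replicate number as a block the counts of members called moved to 3 in monocyte-like (1.27% of all genes called in that fit), 8 in neutrophil-like (0.823%), 7 in plasmacytoid dendritic-like (1.81%), 9 in conventional dendritic-like (2.05%), 9 in B-like (3.13%), 9 in pre-B-like (1.78%) and 15 in endothelial-like cells (14%). The numbers were not taken as pairs, since the labels give same-numbered mice no shared origin and their median correlation, between -0.06 and 0.20, was not over 0.1 for every number. In 22 of 72 class and number pairs the control matched its own number best, where an even spread over 6 partners gives 12, and 11 of the 22 were number 4. Without the filter on low counts the count was 1 in neutrophil-like (0.743%), 7 in plasmacytoid dendritic-like (1.91%), 11 in conventional dendritic-like (1.54%), 9 in B-like (2.22%), 7 in pre-B-like (1.61%) and 2 in erythroid-like cells (1.14%). DESeq2 gave 1 in plasmacytoid dendritic-like (1.4%), 1 in conventional dendritic-like (1.15%), 1 in erythroid-like (1.66%) and 2 in endothelial-like cells (19.8%), and no TMM factors gave 1 in erythroid-like cells (0.56%). Without doublets it was 3 in plasmacytoid dendritic-like (1.32%), 0 in B-like (1.6%) and 2 in endothelial-like cells (17.9%), and without cells with erythroid UMIs 0 in B-like cells (1.82%). A joint limma-voom model of all classes gave 1 in erythroid-like (9.63%), 4 in hepatocyte-like (47.3%) and 12 in endothelial-like cells (27.5%). Without both number 2 mice it was 1 in plasmacytoid dendritic-like (0.776%) and 5 in endothelial-like cells (10.7%). With 1 mouse left out it ranged from 0 to 3 in plasmacytoid dendritic-like, 0 to 2 in conventional dendritic-like, 8 to 15 in hepatocyte-like and 0 to 11 in endothelial-like cells, and under the other settings from 4 to 16 in hepatocyte-like cells. The main fits of these classes called 1.07%, 0.362%, 56.1% and 15.9% of all genes, respectively. The count of differing responses ranged from 0 to 1 for neutrophil-like, 0 to 1 for plasmacytoid dendritic-like and 1 to 5 for conventional dendritic-like cells. The main tests of these differences called 0.185%, 0.233% and 1.17% of all genes, respectively. A prior count of 0.5 or no filter gave 0 for plasmacytoid dendritic-like and 1 for conventional dendritic-like cells, and no TMM factors gave 4 for the latter. Shares of all genes called under these 3 settings are not given here. In hepatocyte-like cells Ifih1 reversed to 0.027 without doublets, and Ifi47 ranged from -0.10 without anemia 2 to 1.75 without anemia 4. The causes were not tested. For the called genes, 144 of 168 values with 1 mouse left out and 96 of 124 under other settings kept direction and call. Depth limits members with few UMIs, among them most OAS and IFIT genes in lymphoid cells.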

Other observations

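Transcripts of interferons other than Ifng came to 287 UMIs in 94 of 206146 cells, and 6 cells with at least 5 such UMIs held 193 of them. A macrophage-like cell of anemia 5 held 107, of which 49 were Ifnb1, 32 Ifna2 and 11 Ifna4, among 8463 UMIs in all. A conventional dendritic-like cell of control 5 held 44, of which 27 were the lambda interferon Ifnl3 and 14 Ifnl2. The other 4 cells came from control 3 (16, 11 and 9 UMIs) and control 4 (6 UMIs), and Ifnb1 was detected in each of them. Of the 6 cells 4 were macrophage-like, and 5 were from control livers. A share of cells this small is set by single cells and was not tested between groups.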
